A study of Homo sapiens with 6 samples.

Results

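The MYC, MAX and MXD network was followed in Huh7 cells carrying extra VPS72. Its 10 genes are MYC, MYCN, MYCL, MAX, MXD1, MXD3, MXD4, MXI1, MNT and MGA, taken by symbol out of 37822 genes in the deposited table, and all 10 were found and passed the filter on low counts that left 14253 genes to test. The VPS72 group had 3 libraries from Huh7, a human hepatocellular carcinoma line, given a lentivirus that carries VPS72, a gene for a histone chaperone found in 2 chromatin complexes, SRCAP and TIP60. The FLAG group had 3 libraries from the same line given a FLAG control lentivirus, with a genotype labelled WT. Both groups were left with virus made in HEK293T cells for 24 h before total RNA was taken, and the sources used here give neither the promoter behind the transgene nor whether cells were cloned or pooled.

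MYC, MYCN and MYCL are basic helix-loop-helix leucine zipper proteins that bind DNA only when paired with MAX, most often at the E-box CACGTG, and then recruit histone acetyltransferase complexes such as TRRAP with TIP60. The MXD proteins, MXI1 and MNT pair with the same MAX and bring the SIN3 and histone deacetylase corepressor to the same sites, while MGA pairs with MAX inside a Polycomb complex, PRC1.6. The balance between activating and repressing MAX dimers is known for setting growth, ribosome production and proliferation, and MYC is a frequent driver of liver cancer. VPS72 and MYC share a point of contact in this scheme, since the TIP60 complex that holds VPS72 is a MYC coactivator.

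The E-box is the site for which the MAX dimers compete, so it was looked up in promoter sequences from RefSeq (GRCh38.p14), each running from 250 bases before to 50 bases after an annotated start. Of the 10 network genes, 9 had an entry, with 14 windows between them. MYC had none, so its promoter was not searched. Of these 9 genes 2, MNT and MXD4, held the E-box CACGTG, which reads the same on both strands. Over all 27305 genes with an entry, 8.78% held it, and over all 35116 windows 7.26% did, against 2 of the 14 windows of the network. Of 7 genes of MYC-related lists that passed the test below, 5 had an entry, GADD45A and KLF10 had none, and LDHA and PLK1 held the E-box. The E-box begins 193 bases before the start in MNT, 238 in MXD4 and 198 in PLK1, and LDHA has a pair, 185 and 87 bases before the start. These 4 windows are shown 5′ to 3′ on the strand of the gene, with the E-box in capitals, because they are the network genes and the MYC-induced genes past the threshold in which it was found. A match describes these letters and does not show that a protein binds there.
MNT, chr17:2401011-2401310, minus strand: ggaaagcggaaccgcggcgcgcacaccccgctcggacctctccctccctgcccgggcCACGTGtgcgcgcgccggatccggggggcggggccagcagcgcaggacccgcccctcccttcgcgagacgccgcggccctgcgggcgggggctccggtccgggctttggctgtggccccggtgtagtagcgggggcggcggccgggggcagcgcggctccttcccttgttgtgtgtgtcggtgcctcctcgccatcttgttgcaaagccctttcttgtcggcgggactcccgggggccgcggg
MXD4, chr4:2262060-2262359, minus strand: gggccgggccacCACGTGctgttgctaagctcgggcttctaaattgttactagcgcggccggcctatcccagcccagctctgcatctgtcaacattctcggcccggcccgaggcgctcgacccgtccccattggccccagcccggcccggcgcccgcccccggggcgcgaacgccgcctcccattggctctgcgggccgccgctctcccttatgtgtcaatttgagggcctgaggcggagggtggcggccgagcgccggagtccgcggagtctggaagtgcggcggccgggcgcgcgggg
LDHA, chr11:18394313-18394612, plus strand: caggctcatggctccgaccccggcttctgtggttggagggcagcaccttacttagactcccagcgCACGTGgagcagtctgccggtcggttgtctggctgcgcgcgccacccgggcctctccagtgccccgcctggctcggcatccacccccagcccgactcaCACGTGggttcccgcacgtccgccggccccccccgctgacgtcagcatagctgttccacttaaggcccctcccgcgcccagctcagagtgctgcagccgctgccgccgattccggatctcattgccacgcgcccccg
PLK1, chr16:23678639-23678938, plus strand: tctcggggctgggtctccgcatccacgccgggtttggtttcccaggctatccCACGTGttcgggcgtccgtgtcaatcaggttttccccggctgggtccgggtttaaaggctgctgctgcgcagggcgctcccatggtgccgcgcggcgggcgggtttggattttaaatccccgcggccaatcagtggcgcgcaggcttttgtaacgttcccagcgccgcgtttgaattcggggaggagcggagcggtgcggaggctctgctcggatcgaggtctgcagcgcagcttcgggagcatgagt

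Library totals ranged from 21345279 to 29091824 counts. VPS72 itself had 33086, 30972 and 27483 counts in the VPS72 libraries and 686, 544 and 511 counts in the FLAG libraries, in the direction of the labels. Values below are counts scaled by library size and TMM factors to CPM, and tests are edgeR's quasi-likelihood test with Benjamini-Hochberg adjustment over all 14253 genes at a threshold of 0.05. Of 10 hepatocyte markers of this line none was at 0, and their summed level was 22035 to 22876 CPM in VPS72 and 19534 to 20351 CPM in FLAG libraries. They included AFP at 5180 CPM in VPS72 and 4461 CPM in FLAG libraries. Of the 10 markers 9 rose past the threshold, against 0.968% of all tested genes. Markers of HEK293T cells summed to 7.76 to 9.94 CPM in VPS72 and 9.22 to 11.7 CPM in FLAG libraries, with NEFL at 0 throughout and 3 of 8 tested. Of the 8 fibroblast markers 6 were tested and LUM, which makes up most of their sum of 207 to 216 CPM in VPS72 and 173 to 187 CPM in FLAG libraries, rose. Immune markers summed to 13.6 to 14.4 CPM in VPS72 and 10.9 to 12.5 CPM in FLAG libraries, and endothelial markers to 4.13 to 4.93 CPM in VPS72 and 2.84 to 4.55 CPM in FLAG libraries, and no gene of either list passed the test, of 2 and 1 tested.

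None of the 10 network genes changed past the threshold in edgeR's test or with limma-voom. DESeq2 gave an adjusted p for 6 of them, of which 0 passed, and none for MYCL, MXD3, MXI1 and MNT. At an unadjusted p of 0.05, 2 of them passed, MYC and MGA, both lower with VPS72. Among all tested genes 1.45% changed, 0.968% higher and 0.477% lower, and 12.3% passed the unadjusted p. The fitted changes of the 10 genes ran from -0.21 (MYC) to 0.13 (MXD4) on the log2 scale, 7 of them below 0, against 51.2% of all genes below 0. Their median was -0.07, and that of all tested genes was -0.00. These are levels in bulk RNA, in which fewer cells with a transcript and less of it per cell cannot be told apart, and protein levels were not measured.

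**Figure D1:**
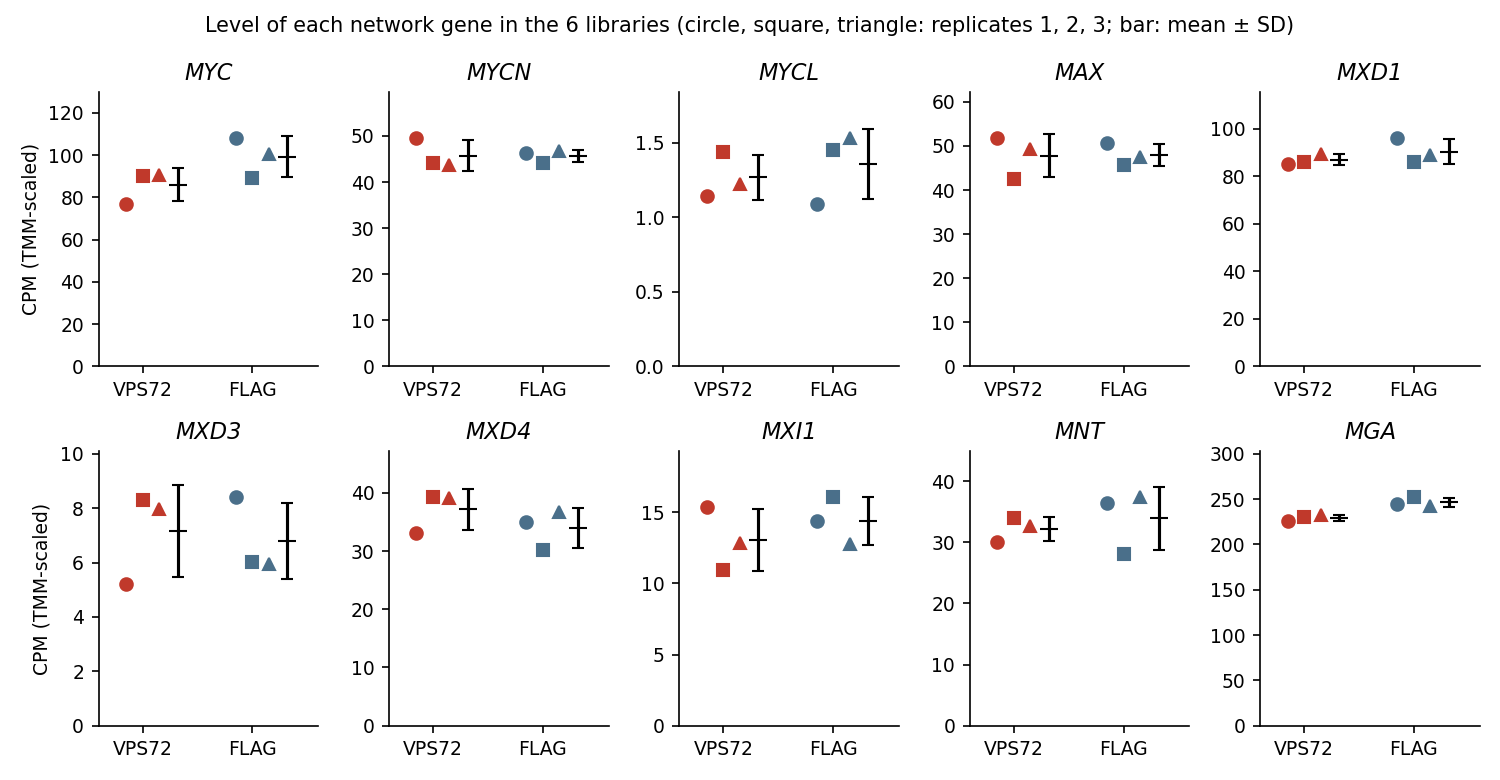
Level of each of the 10 network genes, in TMM-scaled CPM on linear axes that start at 0, in the 3 VPS72 libraries (red, left) and the 3 FLAG libraries (blue, right), with bars for mean ± SD. MGA is the only gene whose groups do not overlap, at 226 to 232 CPM in VPS72 and 243 to 252 CPM in FLAG libraries.

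MYC, the family member that most human tumours use, stood lower with VPS72. Its level was 77.0, 90.2 and 90.6 CPM in VPS72 replicates 1 to 3 and 108, 89.3 and 100.4 CPM in FLAG replicates 1 to 3. All 3 VPS72 libraries lay below the FLAG mean, but the groups overlapped, because FLAG replicate 2 lay under VPS72 replicates 2 and 3. The means were 85.9 ± 7.76 CPM in VPS72 and 99.3 ± 9.49 CPM in FLAG libraries (SD, n = 3 each). The log2 fold change was -0.21 ± 0.09 (SE; edgeR, unadjusted p = 0.0427, Benjamini-Hochberg adjusted p = 0.382), a change of -13.5% with a 95% interval of -24.8% to -0.613%. Without FLAG replicate 2 the log2 fold change was -0.28 and passed (edgeR, adjusted p = 0.032), and without a filter on low counts it also passed, at -0.21 (edgeR, adjusted p = 0.00621). Without VPS72 replicate 1, the lowest library, it was -0.13 (edgeR, adjusted p = 0.519). Over all 19 alternatives the adjusted p ranged from 0.00621 to 0.634 and the log2 fold change stayed negative, and 2 of the 19 passed.

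MYCN, best known from neuroblastoma and also expressed in liver cancer cells, was present at about the same level in both groups. It stood at 49.6, 44.0 and 43.6 CPM in VPS72 and 46.2, 44.2 and 46.6 CPM in FLAG libraries, so the groups overlapped. Its log2 fold change was 0.00 ± 0.07 (SE; edgeR, adjusted p = 0.994), with an interval of -8.86% to 10.2%. MYCNOS, the transcript that overlaps MYCN on the opposite strand, had 1 to 10 counts per library, against 1003 to 1428 for MYCN. MYCL, described in lung cancer, was near the lower limit of the table, with 33, 38 and 29 counts in VPS72 and 28, 37 and 33 counts in FLAG libraries. Those counts correspond to 1.15, 1.44 and 1.22 CPM in VPS72 and 1.09, 1.45 and 1.53 CPM in FLAG libraries. At that depth counting error alone gives a coefficient of variation of 17.4%, and the interval of its change, -44.6% to 58.4%, leaves wide room (log2 fold change -0.09 ± 0.37 SE; edgeR, adjusted p = 0.968).

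MAX, the shared partner of every protein in the network, stood at 51.9, 42.4 and 49.2 CPM in VPS72 and 50.7, 45.8 and 47.5 CPM in FLAG libraries. The FLAG libraries lay within the range of the VPS72 libraries. The means were 47.8 ± 4.86 CPM in VPS72 and 48.0 ± 2.51 CPM in FLAG libraries (SD, n = 3 each), with a log2 fold change of -0.00 ± 0.07 (SE; edgeR, adjusted p = 0.991) and an interval of -9.88% to 10.2%. The gene FNTB overlaps MAX in the RefSeq annotation and had 83 to 147 counts per library, against 1022 to 1493 for MAX. Whether reads were counted by strand is not stated in these sources.

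Of the MXD repressors, MXD1, a myeloid and epithelial differentiation gene, was the most abundant in CPM. It stood at 84.9, 86.1 and 89.4 CPM in VPS72 and 96.1, 85.8 and 88.7 CPM in FLAG libraries, with FLAG replicate 1 above the other 5 libraries. Its log2 fold change was -0.06 ± 0.05 (SE; edgeR, adjusted p = 0.734), with an interval of -10.3% to 3.13%. MXI1, also called MXD2, stood at 15.4, 11.0 and 12.8 CPM in VPS72 and 14.4, 16.1 and 12.7 CPM in FLAG libraries, with overlap (log2 fold change -0.14 ± 0.13 SE; edgeR, adjusted p = 0.745). MXD3, which is expressed in proliferating cells, had 5.21, 8.29 and 7.98 CPM in VPS72 and 8.41, 6.04 and 5.95 CPM in FLAG libraries. Both groups of MXD3 covered nearly the same range (log2 fold change 0.07 ± 0.18 SE; edgeR, adjusted p = 0.948), and its sign turned in 4 of the 6 fits that left out a library. PRELID1, which overlaps MXD3 in the RefSeq annotation, had 2969 to 3918 counts per library against 128 to 219 for MXD3. Whether reads of PRELID1 entered the MXD3 counts was not tested.

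MXD4 was the network gene with the largest positive change. It stood at 33.1, 39.3 and 39.1 CPM in VPS72 and 35.1, 30.2 and 36.7 CPM in FLAG libraries, and the groups overlapped through VPS72 replicate 1. The log2 fold change was 0.13 ± 0.08 (SE; edgeR, adjusted p = 0.582), a change of 9.44% with an interval of -2.79% to 23.2%. With the trend of each library with GC content and transcript length removed, an alternative chosen after seeing the data, MXD4 stood at 36.8, 37.8 and 38.3 CPM in VPS72 and 33.7, 32.6 and 33.9 CPM in FLAG libraries. The groups then did not overlap, and the log2 fold change was 0.17, which did not pass (edgeR, adjusted p = 0.193). MGA, lower with VPS72, was also without overlap after this removal. The share of all genes without overlap after it was not computed.

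MNT, the antagonist that is expressed in both resting and dividing cells, stood at 30.0, 33.9 and 32.7 CPM in VPS72 and 36.4, 28.0 and 37.4 CPM in FLAG libraries. The 3 VPS72 libraries fell inside the range of the FLAG libraries (log2 fold change -0.08 ± 0.09 SE; edgeR, adjusted p = 0.842). MGA, a very large protein that carries both a T-box and a MAX-binding domain, had the smallest spread of the network. It stood at 226, 231 and 232 CPM in VPS72 and 245, 252 and 243 CPM in FLAG libraries, so every VPS72 library lay below every FLAG library. Of all tested genes 8.47% had VPS72 lower without overlap and 8.76% had it higher, 17.2% together, against 1 of the 10 network genes. The log2 fold change of MGA was -0.10 ± 0.04 (SE; edgeR, unadjusted p = 0.00755, Benjamini-Hochberg adjusted p = 0.173), a change of -6.96% with an interval of -11.6% to -2.06%. Over the 19 alternatives it lay between -0.14 and -0.08 with adjusted p from 0.0567 to 0.634.

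**Figure D2:**
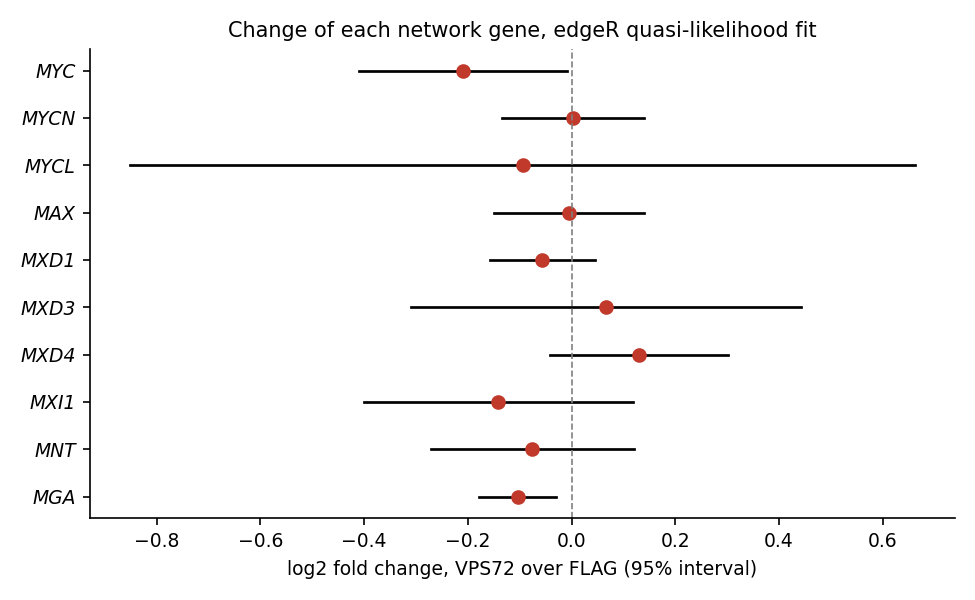
Log2 fold change of VPS72 over FLAG for each network gene (points) with its 95% interval (lines) from the edgeR fit. The intervals of MYC (-0.41 to -0.01) and MGA (-0.18 to -0.03) lie below 0 before adjustment for the number of genes, and that of MYCL is the widest.

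Levels can be set against each other between genes only per length of transcript, and the order depended on which GENCODE v29 transcript length was used. Per kilobase of the median length of the protein-coding transcripts, MAX led with 62.5 CPM per kilobase in VPS72 and 62.7 in FLAG libraries, followed by MYC with 42.1 in VPS72 and 48.6 in FLAG libraries. Per kilobase of the longest transcript, MYC led with 36.3 CPM per kilobase in VPS72 and 42.0 in FLAG libraries, and MAX, whose longest transcript is 3.155 kb against a median of 0.765 kb, ranked 5 with 15.2 in both groups. By either length MYC stood above MYCN without overlap, with MYCN at 21.3 in both groups by the median length, and MYCL was lowest, at 0.653 in VPS72 and 0.699 in FLAG libraries.

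Among the antagonists, MXD1 had 15.5 CPM per kilobase in VPS72 and 16.2 in FLAG libraries by the median length, MNT 11.5 in VPS72 and 12.1 in FLAG libraries, MXD4 9.17 in VPS72 and 8.38 in FLAG libraries, MXI1 5.97 in VPS72 and 6.58 in FLAG libraries and MXD3 4.75 in VPS72 and 4.51 in FLAG libraries. By that length the FLAG ranges of MYCN and MGA overlapped, as did the VPS72 ranges of MXI1 and MXD3, and no other neighbours in the order did. By the longest length the FLAG ranges of MYCN, MGA, MXD1 and MAX ran into each other, so their order is not resolved on that scale, and the same held for MXD4 and MNT and for MXI1 and MXD3. The VPS72 ranges of MGA, MXD1 and MAX also ran into each other, as did those of MXI1 and MXD3. The order of the 10 genes by mean level was the same in both groups on each scale.

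**Figure D3:**
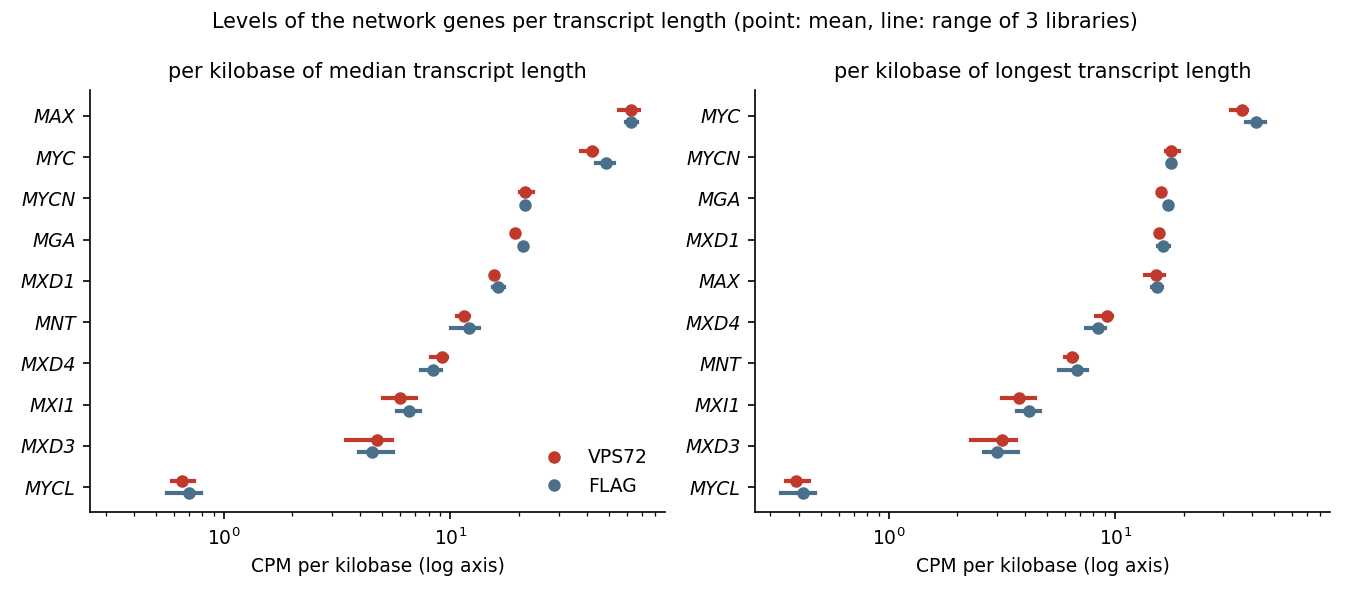
Level of each network gene in CPM per kilobase on a log axis, by the median (left panel) and the longest (right panel) transcript length, for VPS72 (red) and FLAG (blue), with the mean as a point and the range of 3 libraries as a line. MYC and MAX change places between the panels, and MYCL is lowest in both.

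The summed level of MYC, MYCN and MYCL was also set against that of MXD1, MXD3, MXD4, MXI1 and MNT within each library, per kilobase of median length. The ratio was 1.38, 1.37 and 1.35 in VPS72 and 1.47, 1.47 and 1.49 in FLAG libraries. With the longest lengths it was 1.44, 1.43 and 1.41 in VPS72 and 1.56, 1.55 and 1.57 in FLAG libraries. The 3 VPS72 libraries lay below the 3 FLAG libraries on both scales. With the GC and length trend removed it was 1.31, 1.37 and 1.38 in VPS72 and 1.51, 1.44 and 1.53 in FLAG libraries, lower in VPS72 but with a wider spread. The ratio is a sum over genes chosen with earlier results known and carries no p. It describes mRNA levels, and translation and protein stability, which control MYC strongly, are outside it. MYC supplied 61.4% to 67.9% of the summed family level in VPS72 and 67.2% to 70.6% in FLAG libraries, with overlap. MYC over MAX, MYC over MYCN and MYC over MXD1 were also computed, and their groups overlapped by either length. Of the ratios computed, only that of the summed levels was without overlap. Among single tested genes 17.2% had no overlap, and how often a summed ratio has none was not computed.

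The network genes differed in how far libraries of a group spread. The pooled SD within groups on the log2 scale was 0.14 for MYC, larger than that of 96.0% of tested genes within 2-fold of its abundance, and 0.03 for MGA, at percentile 11.1 of its own abundance range. MNT and MXD3 lay at percentiles 93.3 and 92.5, and MYCN at 52.3. VPS72 replicate 1 and FLAG replicate 2 stood below their group mean for MYC, MXD1, MXD3, MXD4 and MNT, and above it for MXI1. These libraries also showed a slope of expression on the GC content of transcripts, over 8931 genes, of -0.03 and -0.05 log2 units per 10 percentage points of GC, against 0.034 and -0.0042 in VPS72 replicates 2 and 3 and 0.0007 and 0.045 in FLAG replicates 1 and 3.

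Across the 10 network genes, the deviation from the group mean had a correlation with GC content of -0.69 in VPS72 replicate 1 and -0.63 in FLAG replicate 2, against 0.66 and 0.47 in VPS72 replicates 2 and 3 and 0.29 and 0.32 in FLAG replicates 1 and 3. VPS72 replicate 3 and FLAG replicate 1 had positive correlations, with slopes over all genes near 0. The deviations of the 3 libraries of a group add up to 0 for each gene. A negative correlation or slope in 1 library therefore requires a positive one in another library of its group. The correlations are a description over 10 genes of the same libraries. Removing the GC and length trend lowered the pooled SD of MXD4 to 0.03, against 0.14 before, that of MNT to 0.12 against 0.17 and that of MXD3 to 0.26 against 0.33, and 9 of the 10 genes had a smaller spread. The exception was MYC, at 0.15 after removal. Over all genes above 10 CPM the median pooled SD also fell, from 0.0747 to 0.0704. The trend was fitted to the same 6 libraries, so a smaller spread is in part what the fit produces. The share of all genes with a smaller spread was not counted. With both VPS72 replicate 1 and FLAG replicate 2 left out, a choice made after seeing the data, MYC had a log2 fold change of -0.21 (edgeR, adjusted p = 0.0964).

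**Figure D4:**
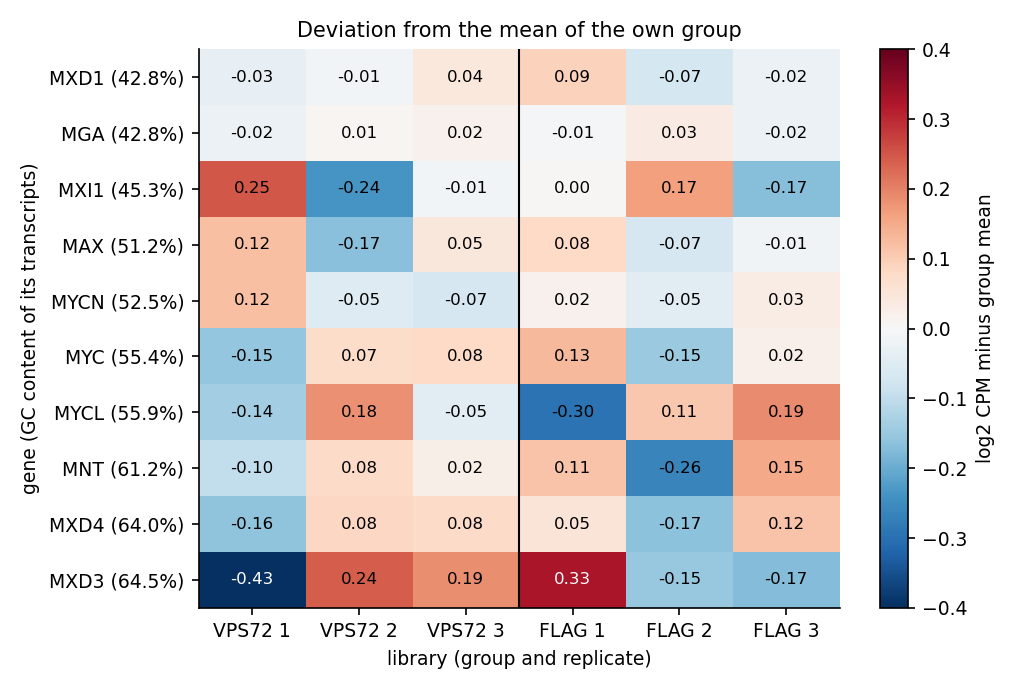
Deviation of each network gene from the mean of its own group, in log2 CPM, in the 6 libraries (columns, VPS72 left and FLAG right), with genes ordered from low (top) to high (bottom) GC content of their transcripts. In VPS72 replicate 1 the 5 genes of highest GC content stand below the group mean, among them MXD3 at -0.43. MXD1 and MGA, of lowest GC content, also stand below it there, at -0.03 and -0.02.

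The 5 genes outside the network whose pattern over the 6 libraries lay nearest to that of MYC were SPINT1, ZNF629, BRD1, MAST3 and TMEM134. Nearness was the root mean square difference of log2 CPM centred on the mean of the 6 libraries, among genes with at least 5 CPM, and it was 0.04 to 0.05 for these 5 against a root mean square of 0.15 for MYC itself. SPINT1, an inhibitor of cell surface serine proteases, stood at 9.35, 10.4 and 10.9 CPM in VPS72 and 12.5, 10.7 and 12.6 CPM in FLAG libraries. Because the group difference is part of the pattern, the choice itself places their changes near that of MYC. Their fitted log2 fold changes ran from -0.22 for SPINT1 to -0.15 for TMEM134, and none passed (edgeR, adjusted p from 0.278 for ZNF629 to 0.665 for TMEM134).

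Genes around the network were followed in 10 lists with 167 tested genes, of which 7 changed, 4 higher and 3 lower, where 1.45% of all tested genes did. The lists were chosen with earlier results of these data known, so the comparison with that share cannot show an excess. Beside each list stands the number of genes at an unadjusted p of 0.05, which 12.3% of all tested genes passed. DESeq2 passed 249 genes, 186 higher and 63 lower, of the same 14253, some of which got no adjusted p from it. Of all tested genes 6955 lay above 0 and 7298 below. Scaling by library size alone moved the median of all genes to -0.035, against -0.004 with TMM. Of the 25 MYC-induced ribosome biogenesis genes, which supply the nucleolus, 0 passed in edgeR or limma-voom and 0 of the 17 to which DESeq2 gave an adjusted p, 1 passed the unadjusted p, and the median log2 fold change was 0.01 (-0.02 if scaled by library size alone). NPM1, the nucleolar phosphoprotein nucleophosmin, stood at 608 ± 9.43 CPM in VPS72 and 629 ± 23.0 CPM in FLAG libraries, and NCL, nucleolin, at 555 ± 19.5 CPM in VPS72 and 557 ± 14.0 CPM in FLAG libraries (SD, n = 3 each).

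Of 23 MYC-induced metabolism and growth genes 1 rose, 0 fell and 22 did not pass, and 4 passed the unadjusted p. With DESeq2 3 of the 20 with an adjusted p passed. The median was 0.02 (-0.01 if scaled by library size alone). The gene that rose in edgeR's test was LDHA, lactate dehydrogenase A, whose pair of E-boxes is shown above. LDHA stood at 559, 556 and 524 CPM in VPS72 and 479, 510 and 496 CPM in FLAG libraries, with every VPS72 library higher, and its log2 fold change was 0.14 ± 0.03 (SE; edgeR, adjusted p = 0.0229). ENO1, the glycolytic enolase, had a log2 fold change of 0.06 ± 0.04 and HSPD1, a mitochondrial chaperone, of 0.09 ± 0.03, and neither passed (edgeR, adjusted p = 0.528 and 0.205). After removal of the GC and length trend HSPD1 passed, at 0.11 (edgeR, adjusted p = 0.0136), and over its 19 alternatives 1 passed.

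Of 17 tested MYC-induced cell cycle genes 1 rose, 0 fell and 16 did not pass, and 5 passed the unadjusted p. With DESeq2 2 of the 12 with an adjusted p passed. Of the 17, 14 lay above 0, with a median of 0.06 (0.03 if scaled by library size alone, 0.025 without FLAG replicate 1), and CCND2 was at 0 in all libraries. PLK1, a mitotic kinase, stood at 112, 112 and 105 CPM in VPS72 and 94.9, 96.0 and 98.3 CPM in FLAG libraries, with no overlap (log2 fold change 0.19 ± 0.05 SE; edgeR, adjusted p = 0.0266). MCM4, a helicase subunit, had a log2 fold change of 0.08 ± 0.04 and CDK4, a G1 kinase, of 0.05 ± 0.04, and neither passed.

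Of 15 tested genes that MYC is known to repress 0 rose, 2 fell and 13 did not pass, and 7 passed the unadjusted p. With DESeq2 1 of the 9 with an adjusted p passed. Of the 15, 11 lay above 0, with a median of 0.03 (-0.00 if scaled by library size alone). GADD45A, induced by growth arrest and DNA damage, had 19.3, 24.4 and 22.9 CPM in VPS72 and 35.1, 29.1 and 36.9 CPM in FLAG libraries, with every VPS72 library lower (log2 fold change -0.60 ± 0.10 SE; edgeR, adjusted p = 0.000868). TXNIP, a thioredoxin-binding regulator of glucose uptake, had 27.2, 29.6 and 32.3 CPM in VPS72 and 36.1, 39.5 and 37.2 CPM in FLAG libraries, also without overlap (log2 fold change -0.34 ± 0.08 SE; edgeR, adjusted p = 0.018).

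TXNIP is also a target of MLX, a relative of MAX that pairs with the glucose-sensing factors MLXIP and MLXIPL. Of the 7 tested genes of the MLX branch 0 rose, 2 fell and 5 did not pass, and 3 passed the unadjusted p, with a median of 0.05 (-0.01 without FLAG replicate 2), 4 of the 7 lying above 0. With DESeq2 3 of the 6 with an adjusted p passed. ACACA, chosen after its values were seen, was higher in every VPS72 library but did not pass (log2 fold change 0.13 ± 0.04 SE; edgeR, adjusted p = 0.083). KLF10, a TGF-beta and glucose-responsive repressor, had 51.2, 52.3 and 52.6 CPM in VPS72 and 65.9, 75.4 and 73.3 CPM in FLAG libraries, all VPS72 libraries being lower (log2 fold change -0.46 ± 0.06 SE; edgeR, adjusted p = 2.05e-05). MLX, MLXIP and MLXIPL themselves, chosen after their values were seen, had log2 fold changes of 0.05 ± 0.07, 0.07 ± 0.05 and -0.35 ± 0.34 and did not pass, the last at 1.17 to 1.69 CPM in VPS72 and 1.21 to 2.16 CPM in FLAG libraries. ARRDC4 and PKLR, other targets of the branch, had at most 7 counts in any library and were not tested.

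Of 17 MYC coactivators and partners 0 passed in edgeR or limma-voom and 0 of the 14 with an adjusted p from DESeq2, and 3 passed the unadjusted p, with a median of -0.03. EP400, the ATPase of the TIP60 complex, differed by -0.04 ± 0.05 on the log2 scale (SE; edgeR, adjusted p = 0.836). Of 14 SIN3 corepressor genes 0 passed in edgeR or limma-voom, 0 of 13 passed with DESeq2, and 1 passed the unadjusted p, with a median of 0.01. NCOR1, a nuclear receptor corepressor, had a log2 fold change of -0.06 ± 0.03 and RBBP4, a histone-binding subunit, of 0.07 ± 0.04. The sign of both medians turned with a scaling or a left-out library, to 0.01 for the coactivators without VPS72 replicate 1 and to -0.02 for the SIN3 genes with library size alone.

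Of 13 PRC1.6 partners of MGA 1 rose, 0 fell and 12 did not pass, and 3 passed the unadjusted p, with a median of -0.00. With DESeq2 1 of the 9 with an adjusted p passed. TFDP1, the dimer partner of E2F factors, had 82.0, 77.5 and 72.2 CPM in VPS72 and 64.0, 67.7 and 67.4 CPM in FLAG libraries, higher in every VPS72 library (log2 fold change 0.22 ± 0.05 SE; edgeR, adjusted p = 0.0316). HDAC1, a deacetylase shared with SIN3, had a log2 fold change of 0.07 ± 0.04 and KDM5C, a histone H3 lysine demethylase, of -0.02 ± 0.04, and neither passed.

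Of 20 genes of MYC protein turnover 2 rose, 0 fell and 18 did not pass, and 4 passed the unadjusted p, with a median of 0.04 (0.0065 if scaled by library size alone). With DESeq2 3 of the 16 with an adjusted p passed. In edgeR's test the 2 that rose were PLK1 and SKP2, a ubiquitin ligase subunit that targets MYC and the cell cycle inhibitor p27. SKP2 stood at 382, 378 and 379 CPM in VPS72 and 331, 330 and 305 CPM in FLAG libraries, without overlap (log2 fold change 0.24 ± 0.04 SE; edgeR, adjusted p = 0.00021). Of 22 tested genes that act on MYC transcription or mRNA 0 passed in edgeR or limma-voom, 0 of 18 passed with DESeq2, and 4 passed the unadjusted p, with a median of 0.01 (-0.03 if scaled by library size alone). IGF2BP1, which binds and stabilizes MYC mRNA, had a log2 fold change of 0.03 ± 0.03 and HNRNPK, an RNA- and DNA-binding protein, of 0.07 ± 0.03. PVT1, the long non-coding RNA next to MYC and chosen after its values were seen, had 31.3, 36.8 and 32.6 CPM in VPS72 and 36.3, 34.6 and 34.4 CPM in FLAG libraries, with overlap (log2 fold change -0.07 ± 0.08 SE; edgeR, adjusted p = 0.83).

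The calls of GADD45A, KLF10 and SKP2 held in all 6 fits that left out a library, though DESeq2 gave no adjusted p for GADD45A. Those of LDHA, PLK1 and TXNIP passed in 2 of the 6 and that of TFDP1 in 1. Without FLAG replicate 1, edgeR's adjusted p was 0.2 for LDHA, 0.165 for PLK1, 0.0565 for TXNIP and 0.202 for TFDP1, and without VPS72 replicate 1 it was 0.123, 0.121, 0.163 and 0.218. With library size alone LDHA, PLK1 and TFDP1 were lost (edgeR, adjusted p = 0.104, 0.08 and 0.0777), as they were with the abundance trend removed (0.17, 0.0573 and 0.0527), and with the spread not estimated robustly all 4 calls were lost (0.0989, 0.0716, 0.0887 and, for TXNIP, 0.0586).

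**Figure D5:**
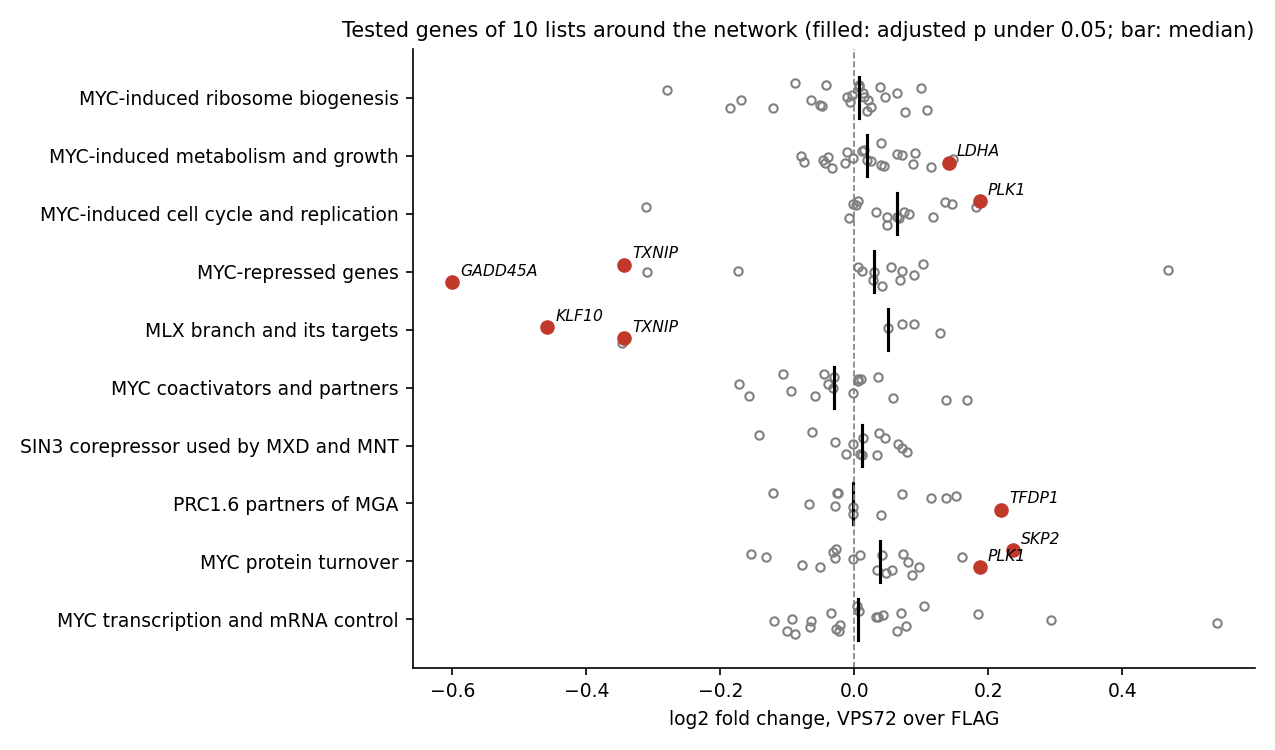
Log2 fold change of VPS72 over FLAG for each tested gene of the 10 lists around the network (rows), with genes past an adjusted p of 0.05 filled and named and the list median as a bar. The medians lie between -0.03 and 0.06, and the filled genes at the left are GADD45A, KLF10 and TXNIP, the last of which stands in a pair of rows.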

How the data were processed

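RNA was measured in 3 VPS72 and 3 FLAG libraries, grouped by sample title. Per the labels' protocols, RNAzol was used for isolation and a KAPA HyperPrep kit for RNA libraries. The authors deposited estimated counts per gene symbol as whole numbers, not normalized; the submitters' processing notes list STAR, RSEM, limma and the builds hg19 and hg38. They assign no roles, and neither the annotation nor the use of strand is stated. If RSEM made the counts, reads shared by similar or overlapping genes were split between them.

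Genes were filtered with filterByExpr (minimum count 10, minimum total 15), leaving 14253 genes with 99.925% of counts, scaled by TMM and tested with edgeR 4.0.16 in R 4.3.3 (quasi-likelihood, robust). SE is the log2 fold change divided by the square root of F, and intervals are 95%. Alternatives used DESeq2 1.42.0, limma 3.58.1, other scalings and filters, a replicate block and each library left out. The fit was checked on simulated counts with the same spread setting for all genes and no GC trend in a library, unlike these data. Nothing says that replicates came from separate cultures, and p-values cover the spread among these libraries, which may be technical. Libraries of a group differed beyond sampling noise (chi-square per degree of freedom 4.70 to 7.69).

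The members and lists were chosen with earlier results of these data known. Of 226 list entries, counting markers, all were found, 1 under an older symbol. Named genes were the 10 members, VPS72, and of each list up to 4 past the threshold with the smallest p, with the 2 most abundant added where fewer than 2 passed; 1 gene so named is not reported here. For MYC the 5 nearest genes in pattern were added. An exact permutation test of 3 against 3 cannot give a p below 0.1, so none was used.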

Additional observations from a re-analysis of the deposited data

How the results depend on the processing

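Genes past the threshold numbered 206 (138 higher, 68 lower) with all libraries. They numbered 516 (402 and 114) after removal of the GC and length trend, 94 with the replicate block, 88 with the spread not robust, 75 with both VPS72 replicate 1 and FLAG replicate 2 left out and 66 at a threshold of 0.01. With 1 library left out they numbered 70 (without FLAG replicate 1) to 160 (without FLAG replicate 2), among them 91 and 96 without VPS72 replicates 1 and 2 and 138 without VPS72 replicate 3. The split was 64 higher and 121 lower with library size alone, which moved the median of all genes to -0.035 (log2), and 71 and 77 with the abundance trend removed. The labels give same-numbered libraries only a number in common. Correlations of their deviations were -0.24, -0.12 and 0.16. Among all pairs across the groups the largest was 0.39, of VPS72 replicate 1 with FLAG replicate 2. The replicate block gave 94 genes and changed no call of a network gene, and LDHA, PLK1 and TFDP1 did not pass with it (edgeR, adjusted p = 0.0916, 0.0924 and 0.0884).

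Network genes past the threshold numbered 0, but 1 (MYC) without a filter and 0 to 1 with 1 library left out. MYC was at -0.21 without a filter and ranged from -0.28 to -0.13 with 1 library left out. MYCN turned to -0.0285 with library size alone, -0.0010 with upper quartile scaling, -0.0013 with the stricter filter and -0.0833 with both libraries left out. MYCL turned to 0.0021 with the abundance trend removed and 0.0301 with both libraries left out. With 1 library left out MYCN ranged from -0.0551 to 0.0369, MAX from -0.0627 to 0.0790, MXD3 from -0.0522 to 0.26, NCL from -0.0304 to 0.0151 and EP400 from -0.0896 to 0.0160. NCL turned to 0.0141 after the GC removal and IGF2BP1 to -0.0168 with the abundance trend removed.

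List medians moved with library size alone to -0.0248 (ribosome biogenesis), 0.0320 (cell cycle), -0.0621 (coactivators), -0.0193 (SIN3), -0.0325 (PRC1.6), 0.0065 (turnover) and -0.0256 (MYC transcription and mRNA). Without a filter, where ARRDC4 and PKLR enter, that of the MLX branch was -0.34. After the GC removal SIN3 was at 0.0313 and PRC1.6 at 0.0196, and with both libraries left out the cell cycle at 0.0952, SIN3 at 0.0307 and turnover at 0.0023. With 1 library left out the cell cycle ranged from 0.0250 to 0.0798, coactivators from -0.0496 to 0.0099, SIN3 from 0.0056 to 0.0390 and MYC transcription and mRNA from -0.0316 to 0.0384. Library size alone also moved the median of all genes, to -0.035 against -0.004 with TMM. Apart from the filter and that shift of all genes, the causes were not tested. Depth limits MYCL, at 28 to 38 counts.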
